A study of Mus musculus with 6 samples.

Results

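Collagens are the proteins that form the fibrils, sheets and filaments of the extracellular matrix, and 42 of the 19342 genes in the table of gene counts are described here. They are all rows whose symbol, up to any semicolon, is Col, a number, the letter a and a further number. RNA was sequenced from islets of 3-month-old mice as 6 libraries, 3 from wild-type FXR+/+ mice and 3 from FXR-/- mice, which carry a whole-body knockout of the bile acid receptor FXR (gene symbol Nr1h4). Each genotype had 1 female library and 2 male libraries, called male 1 and male 2, and the mice had a C57Bl/6 background. Islets were released from the pancreas with collagenase P, the RNA was enriched for polyadenylated molecules, and the sources do not say if mice were pooled for a library. The p-values therefore measure the spread between these libraries.

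A collagen is a triple helix of alpha chains, each with glycine in a short regular repeat, and some types, such as I, IV, V and VI, combine chains from several genes. Fibrillar collagens build the fibrils of the interstitial matrix, which in the pancreas are produced mainly by stellate cells and fibroblasts. Type IV collagen, with the multiplexins at its border, belongs to the basement membranes that in mouse islets lie around the capillaries. Type VI collagen forms beaded microfibrils between both, and the fibril-associated, network-forming and transmembrane collagens make up the rest.

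The 42 genes fell into 8 structural classes, with 10 fibrillar, 9 fibril-associated, 6 type VI, 5 type IV, 4 network and anchoring, 4 transmembrane, 2 multiplexin and 2 other collagens. The repeat of the helix is written in the exons. In the longest coding transcript of the GENCODE vM21 annotation of GRCm38, 83.3% of the inner coding exons of the fibrillar class were a multiple of 9 bases, the length that encodes 1 repeat of 3 residues, and 47.8% were exactly 54 bases. Over all 42 genes these shares were 63.7% and 24.0%, and in the type IV class they were 48.7% and 4.27%. Several members are neighbours in the genome. Col4a4 and Col4a3 lie head to head 71 bases apart on chromosome 1, Col4a6 and Col4a5 lie head to head 1308 bases apart on chromosome X, and Col6a6, Col6a5 and Col6a4 follow each other on chromosome 9.

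The promoters of 5 members are shown because their levels are described in detail below: Col15a1, Col6a3 and Col27a1, which were higher in the FXR-/- library of every pair, and Col3a1 and Col5a1, which set the FXR+/+ libraries apart from each other. Each line holds the 250 bases before the start of the gene in RefSeq on GRCm38.p6, read 5′ to 3′ on the strand of the gene. Capitals mark a CCAAT box (CCAAT), a GC box (GGGCGG) or a TATA box (TATAAA), searched on both strands. The windows are chr4:47207762-47208011 (plus strand) for Col15a1, chr1:90843972-90844221 (minus strand) for Col6a3, chr4:63215162-63215411 (plus strand) for Col27a1, chr1:45311288-45311537 (plus strand) for Col3a1 and chr2:27886175-27886424 (plus strand) for Col5a1. None of them overlaps an exon annotated in GENCODE vM21, and that of Col27a1 lies in an intron of a longer GENCODE transcript.
Col15a1: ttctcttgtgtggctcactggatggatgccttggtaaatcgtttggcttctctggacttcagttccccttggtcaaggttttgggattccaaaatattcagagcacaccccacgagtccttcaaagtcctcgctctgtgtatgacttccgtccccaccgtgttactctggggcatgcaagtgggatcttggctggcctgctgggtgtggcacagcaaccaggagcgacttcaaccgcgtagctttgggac
Col6a3: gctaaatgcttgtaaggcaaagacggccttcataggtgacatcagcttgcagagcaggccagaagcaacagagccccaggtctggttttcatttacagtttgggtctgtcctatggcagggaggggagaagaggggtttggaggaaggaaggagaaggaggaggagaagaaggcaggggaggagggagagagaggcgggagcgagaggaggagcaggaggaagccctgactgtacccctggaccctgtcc
Col27a1: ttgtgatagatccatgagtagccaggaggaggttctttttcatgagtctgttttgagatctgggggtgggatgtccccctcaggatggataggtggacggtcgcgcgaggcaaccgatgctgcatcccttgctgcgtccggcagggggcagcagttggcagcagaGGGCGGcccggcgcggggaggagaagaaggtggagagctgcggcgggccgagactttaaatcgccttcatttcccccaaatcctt
Col3a1: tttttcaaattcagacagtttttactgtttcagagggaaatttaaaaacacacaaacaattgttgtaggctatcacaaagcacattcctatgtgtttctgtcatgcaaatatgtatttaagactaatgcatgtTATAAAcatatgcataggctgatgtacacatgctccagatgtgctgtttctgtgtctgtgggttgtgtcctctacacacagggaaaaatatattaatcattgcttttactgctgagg
Col5a1: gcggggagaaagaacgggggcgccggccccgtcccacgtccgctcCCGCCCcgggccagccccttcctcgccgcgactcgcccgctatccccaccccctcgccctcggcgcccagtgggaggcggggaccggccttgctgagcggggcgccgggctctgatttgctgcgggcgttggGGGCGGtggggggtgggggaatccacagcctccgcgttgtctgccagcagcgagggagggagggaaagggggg
None of the motifs was found in the windows of Col15a1 and Col6a3. The window of Col27a1 held 1 GC box, that of Col5a1 held 2, and that of Col3a1 held a TATA box that begins 117 bases before the start. Col3a1 and Col5a1, both low in the FXR+/+ female and male 2 libraries, differ in base composition, with 35.2% and 76.4% of G and C in the window, where the median over all genes was 52%.

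RefSeq promoters were matched by gene identifier for 33 members and for 27025 genes in all, and the first window listed was taken for each gene. A GC box was found in 63.6% of the member windows and in 32.9% of all windows. The CCAAT box was found in 33.3% of member windows and 34.5% of all windows, and the TATA box in 15.2% and 13%. FXR binds, as a partner of RXR, to 2 half-sites (AGGTCA) that face each other 1 base apart. That exact arrangement was found in 0 of 33 member windows and in 2 of the 27025 windows, and a single half-site in 21.2% and 13.8%. These counts describe the letters of the windows and say nothing of binding.

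The depth and the condition of the libraries bear on every value below. The libraries held between 20629306 and 30139235 counts on genes, of which collagen genes took 0.0378%, 0.0577% and 0.0360% in the FXR+/+ libraries (female, male 1 and male 2, the order used throughout) and 0.0515%, 0.0558% and 0.0495% in the FXR-/- libraries. Nr1h4 was counted 333, 274 and 386 times in FXR+/+ and 140, 145 and 138 times in FXR-/- libraries. It was lower in each FXR-/- library, at 47.8% of the FXR+/+ level (log2 fold change -1.07, edgeR adjusted p = 0.217). The labels state a knockout, and counts within the deleted part of the gene were not examined here. The 10 beta cell markers summed to between 187767 and 272599 CPM (counts relative to the TMM-scaled size of the library) in every library. The FXR+/+ male 1 library stood apart from the other FXR+/+ libraries in its collagens. It was the highest FXR+/+ library for 25 of the 30 members tested, against 37.1% of all genes tested, and in 13 members it was over 2-fold above the mean of the other two.

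Markers of some other cell types were higher in that library. The 10 stellate and fibroblast markers, among them Pdgfra and Dcn, summed to 34.1, 69.0 and 29.4 CPM in FXR+/+ and 64.4, 69.8 and 59.0 CPM in FXR-/- libraries. The 13 acinar markers summed to 43441, 116300 and 38126 CPM in FXR+/+ and 54646, 131732 and 78203 CPM in FXR-/- libraries. The 10 endothelial markers summed to 650.8, 732 and 619.8 CPM in FXR+/+ and 765, 1242 and 837 CPM in FXR-/- libraries, without overlap between the genotypes. The 10 pericyte and smooth muscle markers summed to between 176 and 211 CPM in FXR+/+ and between 193 and 283 CPM in FXR-/- libraries, and the 8 Schwann cell markers to between 15.7 and 24.3 CPM and between 24.2 and 26.6 CPM. The 8 macrophage markers summed to 132, 149.6 and 111 CPM in FXR+/+ and 151, 175 and 148 CPM in FXR-/- libraries. Other lists were not highest in that library. The 8 ductal markers summed to 411, 394 and 371 CPM in FXR+/+, and the 7 markers of alpha, delta and PP cells to 42982, 32847 and 25723 CPM. No marker of these lists was at 0 in all libraries. In bulk RNA a larger number of cells of a type and more RNA per cell cannot be told apart, and the part of these cell types in the collagen values was not tested.

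The question of the comparison was which genes differ between islets with and without FXR. Most of the collagen genes tested had a log2 fold change above 0. By edgeR with a term for sex, none passed after adjustment over all genes. Of the 42 members, 30 passed the filter on low counts, and 27 of these 30 had a log2 fold change above 0, against 51.6% of the 14619 genes tested. This count was 22 of 30 without FXR+/+ male 2 or without FXR-/- male 1, and 19 of 27 with exon counts summed per gene. Leaving out 1 library moved the log2 fold change by over 1.5 times in 26 of the 30 members, all but Col6a3, Col15a1, Col20a1 and Col27a1, and changed its sign in 8. Of the 30 members, 9 were higher in the FXR-/- library of all 3 pairs of the same sex and number, and 1 was lower in all 3. FXR+/+ male 1 was the highest of the 6 libraries for 11 of the 30 members, and for 13.2% of all genes tested. The median log2 fold change (FXR-/- over FXR+/+) was 0.40 over the members and 0.0084 over all genes tested. By the quasi-likelihood test of edgeR, with sex as a further term, 0 of the 30 members had an adjusted p under 0.05, as did 0 of all genes (0.00%). At an unadjusted p under 0.05 were 7 members, 6 higher (Col6a3, Col27a1, Col15a1, Col4a2, Col16a1 and Col20a1) and 1 lower (Col6a6). The background for these counts was 6.18% of all genes higher and 4.15% lower. For 4 of the 30 tested members each FXR-/- library lay on the same side of each FXR+/+ library, 3 higher and 1 lower, where 8.02% of all genes tested were separated as higher and 7.37% as lower. DESeq2 called 1 member, Col6a3, where it called 1.21% of all genes.

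A model that replaced sex by the replicate number as a block made the comparison within the pairs female, male 1 and male 2. Then 15 members had an unadjusted p under 0.05, 14 higher and 1 lower, with a background of 9.83% higher and 6.23% lower. One member was called, Col15a1, where 0.157% of all genes were called. The median ratio within a pair, over the 30 members, was 0.60 on the log2 scale for the females, 0.0019 for male 1 and 0.63 for male 2. Without the FXR+/+ male 1 library the median rose to 0.66 and 17 members had an unadjusted p under 0.05, 16 of them higher. The background without that library was 8.63% higher and 6.04% lower, and 0 members were called by edgeR. DESeq2 with the block, an alternative chosen after the values were seen, called 4 members (Col15a1, Col4a2, Col6a3 and Col5a1, all higher), where 1.37% of all genes were called.

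**Figure D1:**
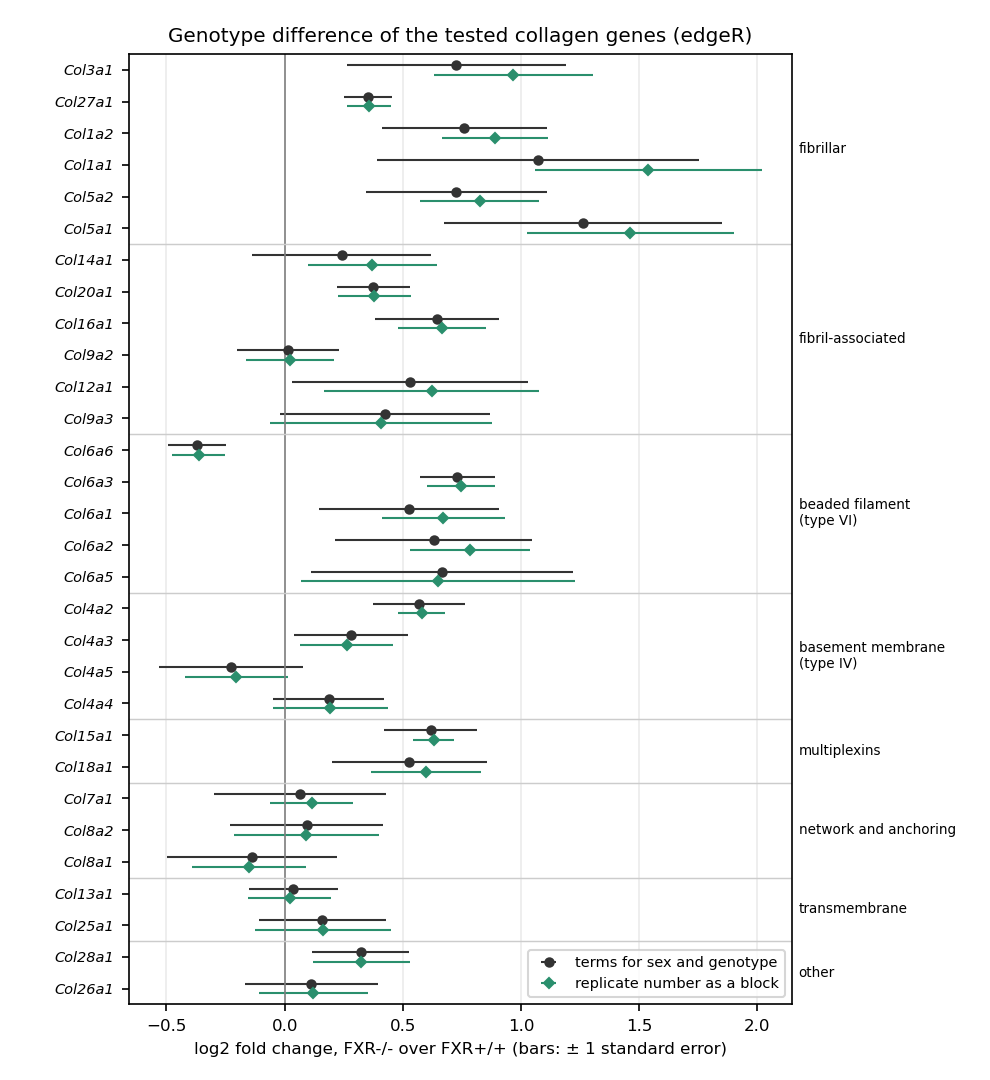
Log2 fold change of FXR-/- over FXR+/+ (x axis) with 1 standard error for the 30 tested collagen genes, by structural class, from edgeR with terms for sex and genotype (circles) and with the replicate number as a block (diamonds). Points lie above 0 for 27 of the 30 genes, and the bars of Col1a1 and Col5a1 are the longest of the fibrillar class.

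Per kilobase of exon, the length-corrected scale on which genes are compared here, the order of the mean level over the 6 libraries began with Col4a2 (18 CPM per kb), Col6a6 (10.8), Col15a1 (6.81), Col3a1 (3.34) and Col13a1 (3.24). On this scale type VI members held 28.5%, 27.6% and 31.0% of the summed collagen level in FXR+/+ and 24.0%, 18.5% and 22.1% in FXR-/- libraries. Type IV members held 28.4%, 25.8% and 27.7% and then 27.1%, 34.7% and 30.3%. Fibrillar members held 11.9%, 20.5% and 10.9% and then 20.1%, 17.9% and 20.5%, below type VI and type IV in every library on this scale. The length counts every base in any annotated exon of a gene, 12426 for Col1a2 and 6619 for Col4a2, against 4116 and 5121 coding bases. The order of the classes depends on it. By CPM without this correction, fibrillar members held 17.6%, 26.1% and 16.1% in FXR+/+ and 26.8%, 24.1% and 27.1% in FXR-/- libraries. Type VI members then held 33.2%, 30.3% and 36.4%, and 26.6%, 20.8% and 24.6%, below the fibrillar class in every FXR-/- library. These sums cover the members alone, and some collagen genes, type IV chains included, are not analysed here.

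**Figure D2:**
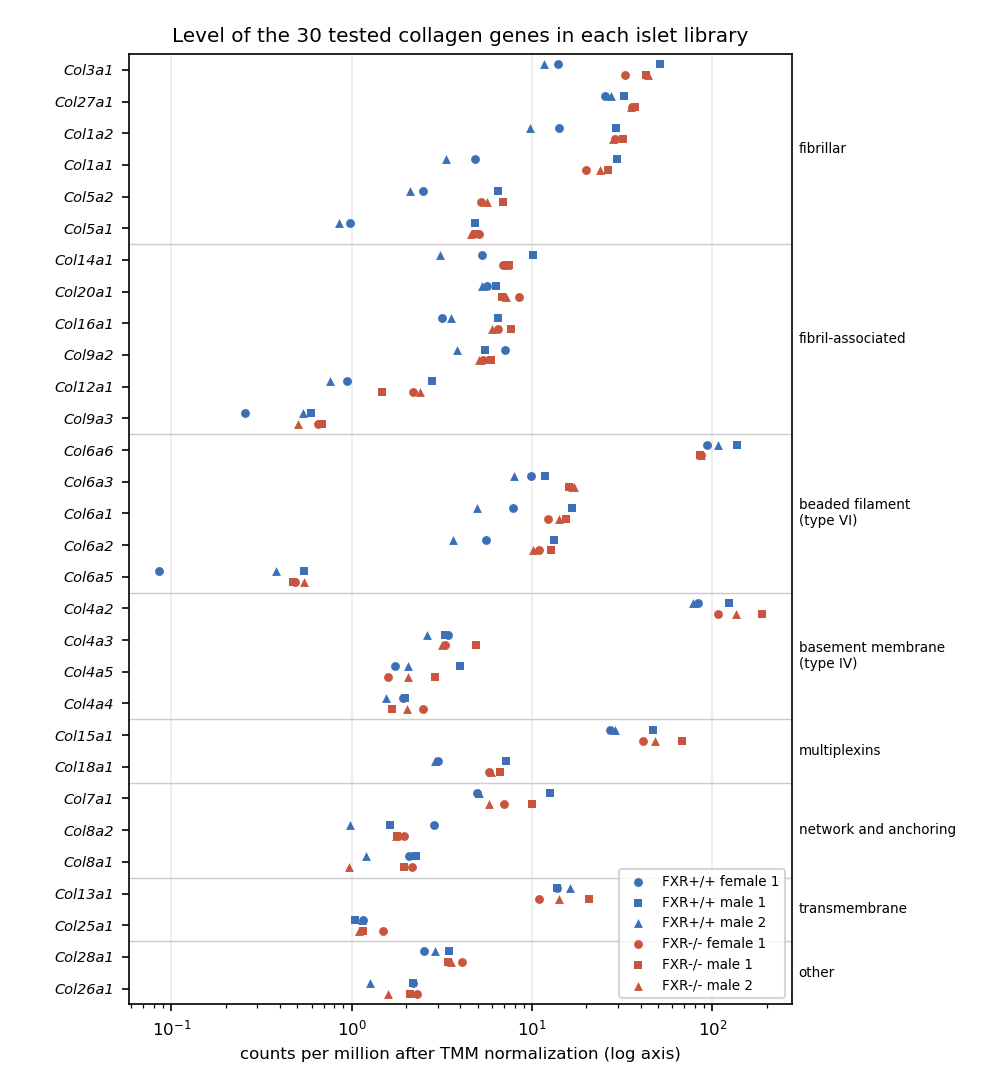
CPM after TMM normalization on a log axis for the 30 tested collagen genes, 1 point per library, with the FXR+/+ libraries in blue and the FXR-/- libraries in red. The FXR+/+ male 1 library (blue square) lies within or above the range of the FXR-/- libraries for Col1a1, Col3a1 and Col5a1, and the 3 FXR-/- libraries of Col6a6 lie together below the FXR+/+ libraries.

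Fibrillar collagens were the class that separated the FXR+/+ libraries most. Col1a1 (NCBI gene 12842, chr11:94936224-94953042, plus strand), which encodes the alpha1 chain of type I collagen, was at 4.82, 29.6 and 3.31 CPM in FXR+/+ and 19.9, 26.5 and 23.8 CPM in FXR-/- libraries. The female and male 2 FXR+/+ libraries were low and the other 4 libraries were high, so the groups overlapped through FXR+/+ male 1 alone. The mean was 12.6 ± 14.8 CPM in FXR+/+ and 23.4 ± 3.33 CPM in FXR-/- libraries (SD, n = 3 each), which is a log2 fold change of 1.07 (SE 0.683, edgeR adjusted p = 0.563). Col1a2 (NCBI gene 12843, chr6:4504814-4541544, plus strand), the alpha2 chain of type I, was at 14.1, 29.2 and 9.72 CPM in FXR+/+ and 28.7, 31.8 and 28.1 CPM in FXR-/- libraries. Its log2 fold change was 0.76 (standard error 0.349, edgeR adjusted p = 0.487), and it was higher in the FXR-/- library of all 3 pairs. Col3a1 (NCBI gene 12825, chr1:45311538-45349706, plus strand), the chain of type III collagen, was at 13.9, 51.2 and 11.7 CPM in FXR+/+ and 32.8, 43.0 and 44.2 CPM in FXR-/- libraries. Here FXR+/+ male 1 was the highest of all 6 libraries.

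Type V collagen controls the diameter of fibrils, and both of its tested chains were low in the FXR+/+ female and male 2 libraries. Col5a1 was at 0.980, 4.81 and 0.852 CPM in FXR+/+ and 5.06, 4.89 and 4.59 CPM in FXR-/- libraries, and Col5a2 at 2.47, 6.49 and 2.11 CPM and at 5.18, 6.89 and 5.60 CPM. Their log2 fold changes were 1.26 (edgeR adjusted p = 0.487) and 0.73 (edgeR adjusted p = 0.518). FXR+/+ male 1 was 7.29-fold above the mean of the other FXR+/+ libraries for Col1a1, 5.25-fold for Col5a1, 4-fold for Col3a1, 2.83-fold for Col5a2 and 2.45-fold for Col1a2. Without both male 1 libraries, an alternative chosen after the values were seen, these 5 fibrillar genes were called higher in FXR-/- by edgeR, with adjusted p-values from 0.00156 (Col1a1) to 0.0245 (Col5a2) and log2 fold changes from 1.23 (Col5a2) to 2.44 (Col1a1). For each of these 5 genes the male 1 pair had a lower ratio than the other pairs. Leaving it out therefore favoured these calls, and no conclusion is drawn from them. In the fit without both male 1 libraries 11 members were called, all higher, where 1.59% of all genes were called. At an unadjusted p under 0.05 were 16 members, all higher, with a background of 9.34% higher and 5.96% lower.

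The ratio between chains also separated the libraries. Per kilobase, Col1a1 stood to Col1a2 as 0.646, 1.92 and 0.645 in FXR+/+ and as 1.31, 1.58 and 1.6 in FXR-/- libraries. The size of this ratio depends on the exon lengths, 6563 and 12426 bases, where 4359 and 4116 bases are coding. Its pattern over the libraries does not depend on them. The same libraries were low as for the level of Col1a1, so the alpha1 transcript varied more than the alpha2 transcript, and the groups overlapped (two-sided exact permutation test over the 6 libraries, p = 0.4).

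Col27a1 (NCBI gene 373864, chr4:63214004-63334991, plus strand), a fibrillar collagen known from cartilage, did not follow this pattern. It was at 25.5, 32.4 and 27.4 CPM in FXR+/+ and 36.0, 37.3 and 35.3 CPM in FXR-/- libraries. All FXR-/- libraries lay above all FXR+/+ libraries, with means of 28.4 ± 3.58 and 36.2 ± 1.06 CPM (SD, n = 3 each) and a log2 fold change of 0.35 (SE 0.102, unadjusted p = 0.00954, edgeR adjusted p = 0.415). FXR+/+ male 1 was only 1.23-fold above the other FXR+/+ libraries. Summed over the class, fibrillar CPM was 62.0, 154 and 55.3 in FXR+/+ and 128, 151 and 142 in FXR-/- libraries, so the FXR-/- libraries differed by less than the FXR+/+ libraries did. Of the 6 fibrillar members tested, all had a log2 fold change above 0 and the median was 0.74, with Col27a1 alone at an unadjusted p under 0.05. With the replicate block, all 6 had an unadjusted p under 0.05, where 9.83% of all genes were higher at that p, and the median was 0.93. The 4 members not tested were Col2a1, Col5a3, Col11a1 and Col11a2, the chains of cartilage fibrils and a minor chain of type V.

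**Figure D3:**
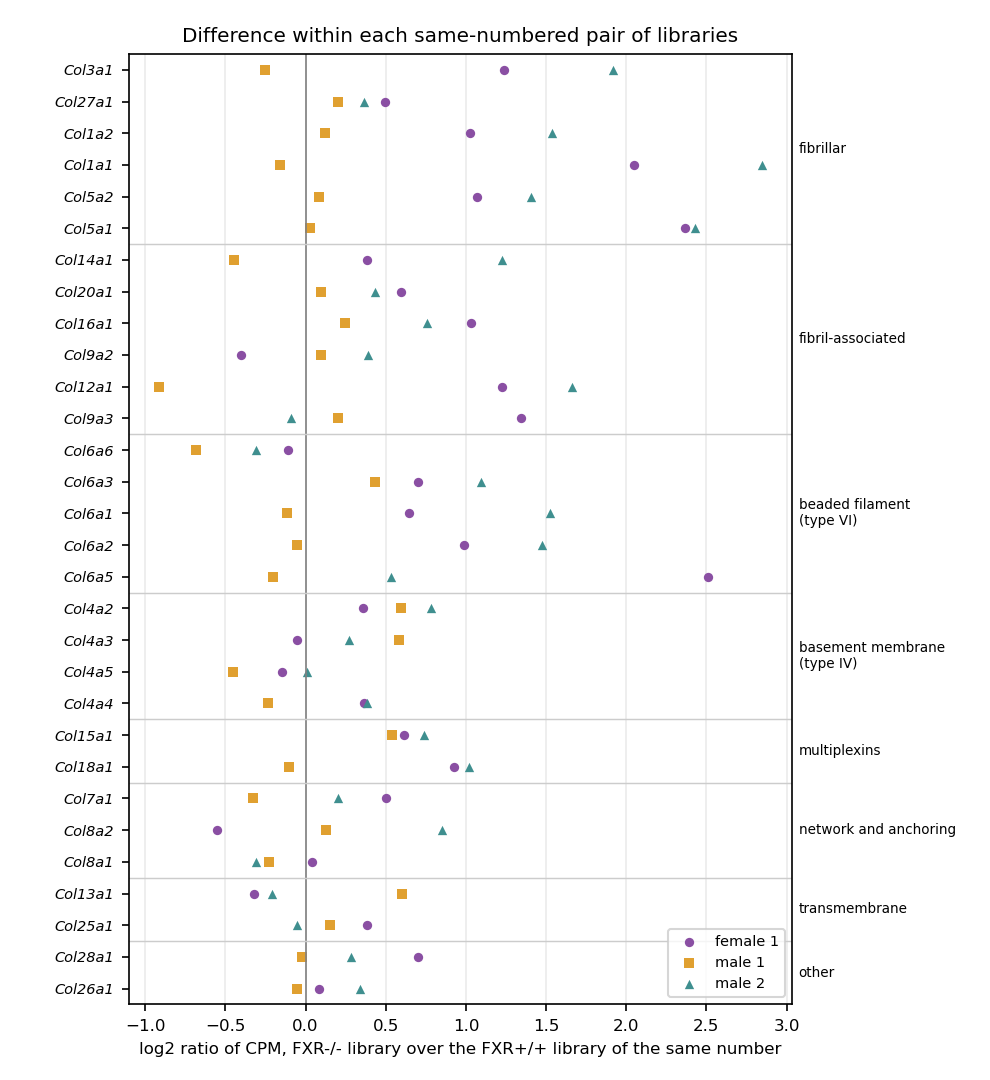
Log2 ratio of CPM between the FXR-/- and the FXR+/+ library of the same number (x axis) for the 30 tested collagen genes, 1 point for each pair. For the fibrillar members other than Col27a1 the female and male 2 pairs lie at 1 or above while the male 1 pair lies near 0, and for Col15a1, Col4a2 and Col6a3 the pairs lie together above 0.

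Of the 5 tested chains of type VI collagen, 4 had a log2 fold change above 0 and 1, Col6a6, had one below 0. Col6a3 (NCBI gene 12835, chr1:90765923-90843971, minus strand), the large alpha3 chain, was at 9.93, 11.8 and 7.95 CPM in FXR+/+ and 16.2, 15.9 and 17 CPM in FXR-/- libraries. All FXR-/- libraries were above all FXR+/+ libraries, with means of 9.89 ± 1.92 and 16.4 ± 0.560 CPM (SD, n = 3 each). Its log2 fold change was 0.73 (standard error 0.159), and its unadjusted p of 0.00216 was the lowest of the members (adjusted p = 0.295 by edgeR and 0.0184 by DESeq2). Col6a6 (NCBI gene 245026, chr9:105687809-105828160, minus strand), an alpha6 chain that can take the place of alpha3, was at 93.3, 136 and 108 CPM in FXR+/+ and 86.7, 85 and 86.8 CPM in FXR-/- libraries. The FXR-/- libraries were all below the FXR+/+ libraries and close to each other, with means of 112 ± 21.8 and 86.2 ± 1.02 CPM (SD, n = 3 each). The log2 fold change was -0.37 (standard error 0.122, unadjusted p = 0.0172, edgeR adjusted p = 0.430), and it was the only one of the 30 members that was lower in all 3 pairs. The difference was smallest for the females, at 0.929-fold, and largest for male 1, at 0.624-fold.

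Per kilobase, Col6a6 stood to Col6a3 as 12.3, 15.1 and 17.6 in FXR+/+ and as 7, 6.96 and 6.66 in FXR-/- libraries, a mean of 15 ± 2.69 against 6.88 ± 0.184 (SD, n = 3 each). The groups did not overlap, and the two-sided exact permutation test over the 6 libraries gave p = 0.1, the smallest that 3 against 3 allows. This ratio was chosen after the values were seen, from 2 members that differ in opposite directions. The alpha1 and alpha2 chains behaved as the interstitial fibrillar genes did. Col6a1 was at 7.80, 16.7 and 4.92 CPM in FXR+/+ and 12.2, 15.4 and 14.2 CPM in FXR-/- libraries (log2 fold change 0.53, edgeR adjusted p = 0.601). Col6a2 was at 5.54, 13.2 and 3.63 CPM and at 11.0, 12.8 and 10.1 CPM (log2 fold change 0.63, edgeR adjusted p = 0.576). Leaving out 1 library gave log2 fold changes from 0.16 (without FXR+/+ male 2) to 1.16 (without FXR+/+ male 1) for Col6a1 and from 0.26 to 1.35 without the same libraries for Col6a2. Their ratio per kilobase stayed between 2.11 and 2.68 in all 6 libraries. Its size depends on the exon lengths, 4380 and 8326 bases, where 3075 and 3102 bases are coding. Col6a5, the neighbour of Col6a6, was at or below 0.547 CPM in every library, and Col6a4 was not tested. Because Col6a6 takes most of the class, the summed type VI level was 117, 179 and 125 CPM in FXR+/+ and 127, 129.8 and 129 CPM in FXR-/- libraries, and the mean in FXR-/- was 0.918-fold that in FXR+/+, while the median log2 fold change of its 5 tested members was 0.63.

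Type IV collagen forms the network of basement membranes, and 3 of its 4 tested chains had a log2 fold change above 0, with a median of 0.23. Col4a2 (NCBI gene 12827, chr8:11312805-11449287, plus strand), a chain found in nearly all basement membranes, was at 83.5, 124 and 78.2 CPM in FXR+/+ and 107, 188 and 134 CPM in FXR-/- libraries. Male 1 was the highest library of both genotypes, and FXR+/+ male 1 lay above the FXR-/- female, so the groups overlapped. The ratios within the pairs were 1.28, 1.51 and 1.72, and the log2 fold change was 0.57 (standard error 0.196, unadjusted p = 0.0216, edgeR adjusted p = 0.450). With the replicate block it was 0.58 by edgeR (adjusted p = 0.0672) and 0.57 by DESeq2 (adjusted p = 0.000644). The chains of the specialised basement membranes of kidney and other epithelia were scarce. Col4a3 was at 3.41, 3.27 and 2.62 CPM in FXR+/+ and 3.28, 4.89 and 3.16 CPM in FXR-/- libraries, and its head-to-head neighbour Col4a4 at 1.92, 1.98 and 1.55 CPM and at 2.47, 1.68 and 2.02 CPM. Col4a5 was at 1.75, 3.96 and 2.05 CPM and at 1.58, 2.89 and 2.06 CPM. None of these 3 differed between the genotypes by more than the spread of the libraries (edgeR adjusted p from 0.657 to 0.783), and Col4a6 was not tested.

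Multiplexins are basement membrane collagens whose helix is interrupted. Col15a1 (NCBI gene 12819, chr4:47208161-47313167, plus strand) was at 26.9, 46.7 and 28.8 CPM in FXR+/+ and 41.2, 67.9 and 48.0 CPM in FXR-/- libraries. Like Col4a2, it was highest in male 1 of both genotypes. The ratios within the pairs lay close together at 1.53, 1.45 and 1.67, and the log2 fold change was 0.62 (standard error 0.196, unadjusted p = 0.0151, edgeR adjusted p = 0.430). With the replicate block the log2 fold change was 0.63 and the edgeR adjusted p was 0.0458, so the call depends on the pairing. Col18a1, the source of endostatin, was at 3.03, 7.19 and 2.90 CPM in FXR+/+ and 5.75, 6.68 and 5.89 CPM in FXR-/- libraries (log2 fold change 0.53, edgeR adjusted p = 0.560), and for it FXR+/+ male 1 was the highest of all libraries. Per kilobase, Col15a1 stood to Col4a2 between 0.337 and 0.401 in all 6 libraries. Of the 10 endothelial markers given above, 8 had an unadjusted p under 0.05, all higher in FXR-/-, where 6.18% of all genes were. DESeq2 called 2 of them, where it called 1.21% of all genes, and the median log2 fold change of the list was 0.55. At an unadjusted p under 0.05, 4 of 8 macrophage, 2 of 8 Schwann cell and 2 of 7 ductal markers were also higher. So were 2 of 9 pericyte and smooth muscle and 2 of 10 beta cell markers. None of the stellate and fibroblast, acinar, or alpha, delta and PP cell markers was. Yet 9 of 9, 11 of 13 and 6 of 7 tested genes of these lists had a log2 fold change above 0. Their medians were 0.75, 0.42 and 0.14, and 51.6% of all genes tested were above 0. The endothelial marker Plvap was at 132, 161 and 125 CPM in FXR+/+ and 182, 297 and 200.8 CPM in FXR-/- libraries, also highest in male 1 of both genotypes. Whether Col4a2 and Col15a1 differ beyond the endothelial markers was not tested.

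**Figure D4:**
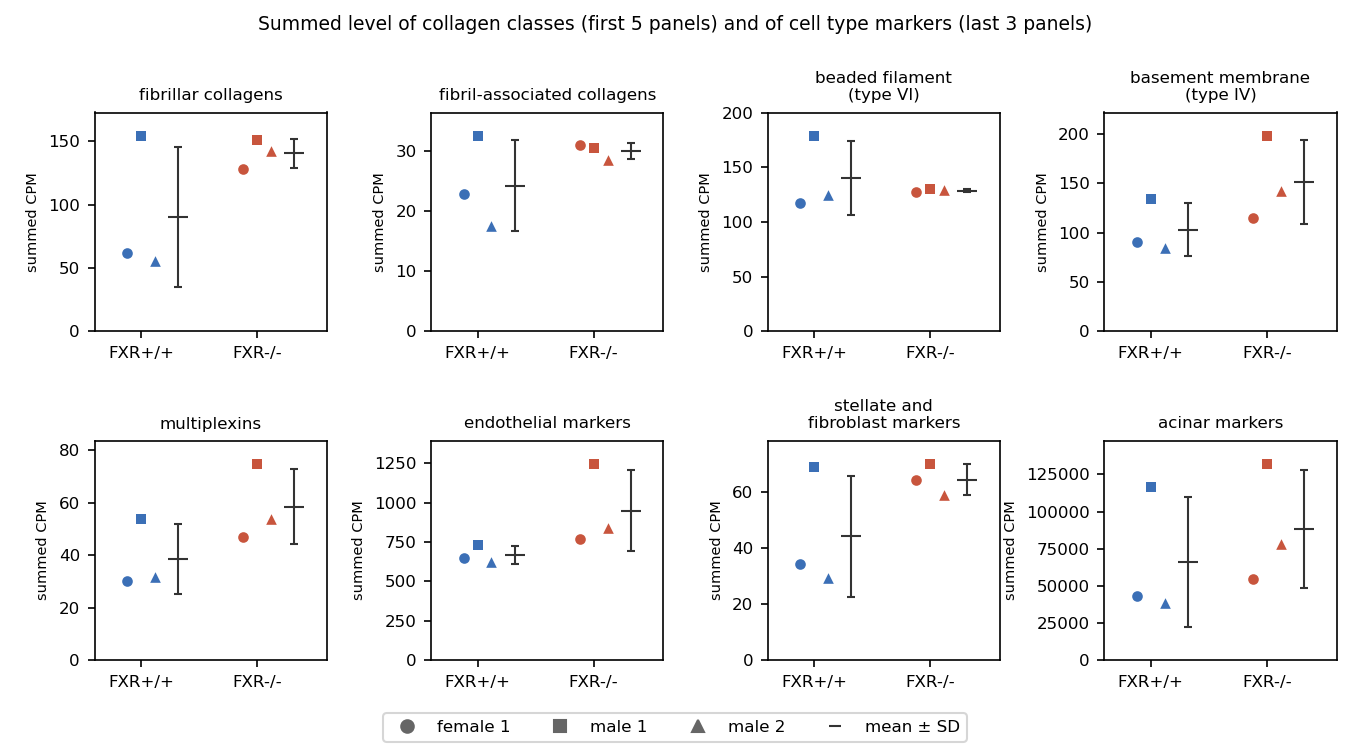
Summed CPM of 5 collagen classes and of 3 lists of cell type markers, 1 point per library, with the mean and SD of each genotype beside the points and all axes from 0. The fibrillar class and the stellate and fibroblast markers are low in the female and male 2 FXR+/+ libraries, and the type IV class, the multiplexins and the endothelial markers are highest in FXR-/- male 1.

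Fibril-associated collagens coat fibrils and link them to other matrix. All 6 tested members had a log2 fold change above 0, with a median of 0.40, and 2 had an unadjusted p under 0.05, where 6.18% of all genes were higher at that p. Col16a1 (NCBI gene 107581, chr4:130047840-130099283, plus strand) was at 3.15, 6.44 and 3.54 CPM in FXR+/+ and 6.44, 7.63 and 5.97 CPM in FXR-/- libraries (log2 fold change 0.64, standard error 0.263, unadjusted p = 0.0422, edgeR adjusted p = 0.475). It was higher in the FXR-/- library of every pair, and FXR+/+ male 1 overlapped with the FXR-/- libraries. Col20a1 (NCBI gene 73368, chr2:180986535-181018363, plus strand) was at 5.63, 6.34 and 5.30 CPM in FXR+/+ and 8.51, 6.78 and 7.15 CPM in FXR-/- libraries (log2 fold change 0.38, standard error 0.155, unadjusted p = 0.0441, edgeR adjusted p = 0.478). Its groups did not overlap, by a margin between 6.34 and 6.78 CPM, and with its exon counts summed the log2 fold change was -0.014. Col14a1 and Col12a1, which bind interstitial fibrils, had log2 fold changes of 0.24 and 0.53 and ratios below 1 in the male 1 pair, at 0.735 and 0.531. The type IX chains Col9a2 and Col9a3, known from cartilage, had log2 fold changes of 0.02 and 0.42 (edgeR adjusted p = 0.980 and 0.715). Col9a1, Col19a1 and Col22a1 were not tested.

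The remaining classes showed no difference at an unadjusted p under 0.05. Col7a1, which forms the anchoring fibrils of epithelia, was at 4.94, 12.5 and 5.05 CPM in FXR+/+ and 7.01, 9.99 and 5.81 CPM in FXR-/- libraries (edgeR adjusted p = 0.954), highest in male 1 of both genotypes. Col13a1, a transmembrane collagen of cell adhesion sites, was at 13.7, 13.7 and 16.3 CPM and at 10.9, 20.8 and 14.1 CPM (edgeR adjusted p = 0.950). It was one of the few abundant members for which FXR+/+ male 1 did not stand apart, at 0.912-fold the other FXR+/+ libraries. The network-forming Col8a1 and Col8a2, the transmembrane Col25a1 and the remaining Col26a1 and Col28a1 had log2 fold changes between -0.14 and 0.32. The 12 members that did not pass the filter, which also include Col10a1, Col17a1 and Col23a1, had at most 21 counts in a library. Among them Col5a3 was not counted in any FXR+/+ library and had only 2, 3 and 0 counts in the FXR-/- libraries.

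The sum over all 42 members was 352, 590.4 and 343 CPM in FXR+/+ and 478, 625 and 525 CPM in FXR-/- libraries. FXR+/+ male 1 lay above the female and male 2 FXR-/- libraries, and the log2 difference of 0.38 was within the spread of the libraries (two-sided exact permutation test, p = 0.3, where 3 against 3 cannot go below 0.1). Without FXR+/+ male 1 it was 0.63, with both remaining FXR+/+ libraries below all FXR-/- libraries (exact permutation test, p = 0.2, the smallest that 2 against 3 allows).

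Sex was examined in the same model, and its interaction with genotype in a model with that further term. By edgeR, 0 of the 30 members had an adjusted p under 0.05 between male and female libraries, where 0.0547% of all genes did, and 0 had an unadjusted p under 0.05, where 7.48% of all genes did. DESeq2 called 0 members as well, where it called 0.568% of all genes, and 1 member had an unadjusted p under 0.05, where 6.41% of all genes did. Without FXR+/+ male 2, 7 members had an unadjusted p under 0.05 by edgeR, all higher in males, where 12.3% of all genes did. The lowest unadjusted p was that of Col15a1 (0.0522 by edgeR and 0.0235 by DESeq2), which was higher in males by 0.49 on the log2 scale. The interaction, which asks whether the genotypes differ unequally in the sexes, was not called for any member by edgeR or DESeq2, which called 0.00% and 0.0205% of all genes. In both, 0 members had an unadjusted p under 0.05, where 1.48% of all genes did by edgeR and 0.964% by DESeq2. These counts turn on single libraries. Without FXR+/+ male 1, 4 members had an unadjusted p under 0.05 by edgeR, all with an interaction above 0, and without FXR+/+ male 2, 9 members did, all below 0, while 4.27% and 3.34% of all genes did. The median interaction of the members on the log2 scale was -0.34 with all libraries, 0.37 without FXR+/+ male 1 and -0.71 without FXR+/+ male 2. With 1 female library per genotype, the female difference rests on a single pair.

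Counts on single exons were deposited as well. The exon table held 27.3% of the collagen gene counts and 5.64% of those of Col1a1, where it held between 32.3% and 36.6% of the counts of all genes per library. Of 348 member exons in that table, the 122 exons longer than 200 bases held 95.6% of the counts. After the filter, 42 exons of 25 members were tested, and by edgeR 0 had an adjusted p under 0.05, where 0.0185% of all 26981 exons did. At an unadjusted p under 0.05 were 11 exons higher and 3 lower, with a background of 4.69% and 3.11%. DESeq2 called 0 member exons, where it called 0.230% of all exons, and 7 had an unadjusted p under 0.05, where 3.90% of all exons did.

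The lowest p belonged to an exon of Col5a2 at its 3′ end (chr1:45374331-45376230, minus strand), with 6, 6 and 4 counts in FXR+/+ and 23, 21 and 17 in FXR-/- libraries. Its groups did not overlap and FXR+/+ male 1 was not high in it, unlike in the gene as a whole, and the log2 fold change was 2.06 (standard error 0.436, edgeR adjusted p = 0.300). Next were a 746-base exon of Col6a3 near its 3′ end (chr1:90766860-90767605), with 103, 74 and 99 counts in FXR+/+ and 144, 101 and 127 in FXR-/-, and the last exon of Col4a2 (chr8:11448059-11449287), with 377, 477 and 514 counts and 527, 618 and 671 counts. Their log2 fold changes were 0.58 and 0.55 (edgeR adjusted p = 0.543 for both). An exon of Col3a1 (chr1:45345848-45346142) had 3, 11 and 2 counts in FXR+/+ and 11, 15 and 20 in FXR-/-, and an exon of Col27a1 (chr4:63224204-63225939) had 99, 103 and 163 counts and 166, 135 and 140 counts. The 3 exons that were lower all belonged to Col6a6, with log2 fold changes from -0.56 to -0.45, the direction of the whole gene.

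Genes that make, cut and bind collagen were compared as lists, and none had an adjusted p under 0.05 by edgeR. Of all genes, 6.18% were higher and 4.15% lower at an unadjusted p under 0.05, against which the counts of these lists and of the TGF-beta pathway stand. Without overlap between the groups, 8.02% were higher and 7.37% lower. Of 19 tested genes of procollagen modification and folding, 3 were higher and 1 lower at an unadjusted p under 0.05, with a median log2 fold change of 0.23. Serpinh1, the collagen chaperone HSP47, was at 23.6, 32.9 and 25.4 CPM in FXR+/+ and 28.6, 45.7 and 32.4 CPM in FXR-/- libraries (log2 fold change 0.38, edgeR adjusted p = 0.477). The lysyl hydroxylases Plod1 and Plod3 had log2 fold changes of 0.35 and 0.29, and Sec23a, a coat protein of the vesicles that carry cargo from the endoplasmic reticulum, of -0.30. Of 8 tested genes of propeptide removal and cross-linking, 1 was higher, the procollagen proteinase Tll1, which was at or below 0.729 CPM in every library.

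Of 11 tested genes of collagen degradation, 2 were higher at an unadjusted p under 0.05, both membrane-bound metalloproteinases. Mmp14, which cuts fibrillar collagen at the cell surface, was at 7.12, 7.88 and 5.62 CPM in FXR+/+ and 11.7, 11.8 and 9.21 CPM in FXR-/- libraries (log2 fold change 0.67, edgeR adjusted p = 0.369). Mmp15 was at 13.8, 17 and 11.1 CPM and at 20.3, 28.7 and 20.3 CPM (log2 fold change 0.72, edgeR adjusted p = 0.382). For both, all FXR-/- libraries lay above all FXR+/+ libraries, as they did for 8.02% of all genes. Of 7 tested collagen receptors none had an unadjusted p under 0.05, and the median log2 fold change was 0.12. Of 15 matrix partners of collagens, of which Dcn and Lum are also fibroblast markers, 14 had a log2 fold change above 0, with a median of 0.42, and Tgfbi alone had an unadjusted p under 0.05. With the replicate block 10 of the 15 did, where 16.1% of all genes did, and 0 were called. The summed level of these partners in FXR+/+ male 1 was 1.75-fold that of the other FXR+/+ libraries.

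In the TGF-beta pathway, the best known inducer of fibrillar collagen transcription, 3 of 16 tested genes were higher and 2 lower at an unadjusted p under 0.05, and the median log2 fold change was 0.02. Under the replicate block 8 of the 16 had an unadjusted p under 0.05, where 16.1% of all genes did, and 0 were called. The ligand Tgfb3 was at 2.73, 3.67 and 2.21 CPM in FXR+/+ and 6.12, 5.10 and 4.08 CPM in FXR-/- libraries (log2 fold change 0.83, edgeR adjusted p = 0.430), and the ligand Tgfb1 had a log2 fold change of 0.47. The receptor Tgfbr2 was at 11.0, 14.2 and 9.69 CPM and at 16.9, 19.9 and 15.7 CPM (log2 fold change 0.59, edgeR adjusted p = 0.410). The groups did not overlap for Tgfb3 and Tgfbr2. Ltbp2, a matrix protein of the latent TGF-beta binding family, was at 5.16, 12.6 and 8.21 CPM in FXR+/+ and 3.44, 3.47 and 5.01 CPM in FXR-/- libraries (log2 fold change -1.06, edgeR adjusted p = 0.334), lower without overlap. It was the only gene of the 6 lists that DESeq2 called. The co-receptor Tgfbr3 had a log2 fold change of -0.35.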

How the data were processed

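The authors deposited whole-number counts per gene and counts per exon for the 6 libraries. HISAT is named in the submitters' processing notes, and the counter, build and use of strand are not given in the sources used here. Exon positions were those of GRCm38, with 92.0% of 348 member exons at GENCODE vM21 positions. The authors' own comparison of the genotypes (fold changes and p-values) was not used. The members and gene lists were chosen with earlier results of these data known. All 14619 genes that passed filterByExpr (minimum count 10, minimum total 15) were fitted in edgeR 4.0.16 (R 4.3.3) with TMM, glmQLFit and glmQLFTest, terms for sex and genotype, and Benjamini-Hochberg adjustment, with 3 residual degrees of freedom. The script was tested on simulated data. Library sizes were taken over the filtered genes for the fit. The standard errors given with edgeR are the absolute log2 fold change divided by the square root of the F statistic. The permutation tests were made in SciPy on log2 values. Named members were the 12 with the highest mean CPM, those with an unadjusted p under 0.05 and those without overlap between genotypes. The pairing comes from the labels' sex and number: deviations of same-numbered libraries from their genotype means correlated at 0.373, 0.419 and 0.346 across genes. Alternatives were DESeq2 1.42.0, the replicate block, other scalings and filters, exon sums and each library left out. Since the counting rule is not stated, 26 members whose span overlaps another annotated gene are uncertain, among them Col4a2 with antisense Gm15419 and Col15a1 with antisense Gm12426. For 31 rows of the gene table no symbol is given.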

Additional observations from a re-analysis of the deposited data

How the results depend on the processing

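The model described above called 0 members, and so did the other scalings and filters, edgeR's legacy estimates, the fit without sex, males alone, exon sums and every fit that left out 1 library. DESeq2 called 1 member, the replicate block called 1, DESeq2 with the replicate block 4, and the fit without both male 1 libraries 11, the last 2 chosen after the values were seen. The count at an unadjusted p under 0.05 was 7 (10.3% of all genes tested in the same fit). It was 4 with library size alone (10.3%), 3 in males alone (8.28%), 15 with the replicate block (16.1%), 13 by DESeq2 with the block (8.84%) and 16 without both male 1 libraries (15.3%). It ran from 3 to 17 when 1 library was left out: 17 without FXR+/+ male 1 (14.7% of all genes), 3 without FXR+/+ female (8.21%), FXR-/- female (8.37%) or FXR-/- male 1 (5.78%), and 5 without FXR+/+ male 2 (6.46%) or FXR-/- male 2 (7.24%). The median log2 fold change ran from 0.25 to 0.66 over the same fits and was 0.54 without both male 1 libraries. Library size alone moved the median of all genes to -0.087 and that of the members to 0.30. The replicate block made no other call among the members or their exons. No paired analysis of sex was possible because sex is the same within a pair. The count of pathway genes was 0, and 1 (lower) by DESeq2. Of 251 alternative values of single named members, 239 kept the sign of the main value. Named members were chosen in part by their p-value or separation in these same libraries, so this count is no separate support. Over all 30 tested members, leaving out 1 library changed the sign in 8. The cause of these shifts was not tested. Counting depth limits the 12 untested members.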
